A study of Mus musculus with 3 samples.

Results

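The regions described here are the PATZ1 peaks at the ends of the mouse autosomes, chromosomes 1 to 19. A peak belongs to the centromere side if its summit lies below position 4000000 of its chromosome in the mm9 assembly, and to the telomere side if its summit lies within 1000000 bp of the last peak end of either day on that chromosome. These limits gave 15498 peaks of 1113434 on the autosomes and of 1167521 in both deposited lists. At day 0 there were 1830 centromere-side and 2626 telomere-side peaks of 315100 in the list, and at day 5 there were 4757 and 6285 of 852421. PATZ1 chromatin immunoprecipitation and sequencing was done in 10T1/2, an established line of mouse embryo fibroblasts used as a source of adipocytes in culture. The labels give 1 PATZ1 library in cells at day 0 and 1 at day 5 of differentiation, and 1 input library whose label names both days. Chromatin of both days was sonicated and immunoprecipitated with the PATZ1 antibody sc-390577 of Santa Cruz, and the labels name no genetic change, differentiation agent or separate culture.

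PATZ1 is a transcription factor with a BTB domain, through which such proteins pair and recruit corepressors, and with zinc fingers and AT-hooks that contact DNA. Mouse autosomes are telocentric: the centromere sits at one tip, next to the short telomere there, and the assembly numbers each chromosome from that tip. The tip itself is made of long satellite arrays that the assembly leaves out, so that the first bases with sequence border on pericentromeric DNA, while the far end borders on subtelomeric DNA. Both kinds of border are rich in repeats and in duplicated segments, and a segment that is present in more copies in the cells than in the assembly collects the reads of all its copies, in an input library as well as in an immunoprecipitate.

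The label of the centromere side held for 18 of the 19 autosomes. On 18 of them the first peak of either day started between 3000119 (chromosome 9) and 3252789 (chromosome 13). The first peak of chromosome 14 started at 8512526, so this chromosome has no centromere-side member. The centromere side thus covers 16.6 Mb, counted from the first peak of each chromosome, the telomere side 19 Mb and the other autosomal sequence 2373 Mb. These lengths count all bases, including any where no peak could be called, and the densities below divide by them. Away from the ends the longest distance between neighbouring summits was 7465536 bp at day 0 and 7460467 bp at day 5. With 1 library per day no difference below has a replicate check, no test was made and no p-value is given. The 95% intervals cover counting error alone and take each peak as an independent event. The narrowest peak was 228 bp wide at day 0 and 56 bp at day 5. The lowest background at a summit was 1.95 and 0.452 reads, which over these widths is 8.55 and 8.07 reads per kb. Total read numbers of the libraries were not analysed here. The weakest −log10 p listed was 1.01 at day 0 and 1.30 at day 5, and the medians of the end peaks were 2.40 and 2.42. A p adjusted over the list (q) of at most 0.05 was reached by 2.09% of autosomal peaks at day 0 and 0.00125% at day 5. Most peaks counted below are thus weak calls. Since the lists differ in these settings, widths, folds and counts are compared within a day.

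The centromere side held fewer peaks than the rest of the same chromosomes on both days. At day 0 it had 110.4 peaks per Mb, where the other peaks of the same chromosomes gave 133 per Mb, a ratio of 0.831 (0.793 to 0.870). At day 5 it had 287 against 339.5 per Mb, a ratio of 0.845 (0.821 to 0.870). Among peaks with a −log10 p of at least 3 the day 0 ratio was 0.922 (0.843 to 1.01), which includes 1, and the day 5 ratio 0.890 (0.828 to 0.954). The telomere side was close to the rest: 138 against 131 per Mb at day 0, a ratio of 1.06 (1.02 to 1.10), and 331 against 336 per Mb at day 5, a ratio of 0.984 (0.960 to 1.01). With a −log10 p of at least 3 the telomere-side ratio was 1.15 (1.06 to 1.24) at day 0 and 1.02 (0.962 to 1.09) at day 5. Over all listed peaks, the small surplus of the telomere side at day 0 was not there within 500000 bp of the end, where the ratio was 0.991 (0.936 to 1.05).

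The low density of the centromere side lay in its outermost part. In the first 100 kb past position 3000000 the day 0 ratio was 0.707 (0.559 to 0.882), over the 11 chromosomes covered there, and at 100 to 200 kb it was 0.498 (0.401 to 0.611). It was 0.511 (0.422 to 0.614) at 200 to 300 kb and 1.003 (0.880 to 1.14) at 500 to 600 kb. The day 5 ratios of these same steps were 0.665, 0.580, 0.746 and 1.06. Of the 78 day 0 peaks of the first step, 42 lay on chromosome 11, and the median background of the step was 49.2 reads. Without peaks of high background, defined further on, the first step held 35 day 0 peaks, a ratio of 0.317 (0.221 to 0.441). It held 154 day 5 peaks, a ratio of 0.512 (0.434 to 0.5995). The number expected still counted the sequence that the peaks left out lay on, which lowers these ratios by construction. They are therefore not ranked against the ratios of 0.498 and 0.580 in the next step. Within the first 1000 kb the lowest ratios lay in the first 400 kb at day 0 and in the first 500 kb at day 5. At 400 to 500 kb the day 0 ratio was 0.899 (0.783 to 1.03), above the 0.870 at 800 to 900 kb. From 500 to 1000 kb the ratios of the 100-kb steps lay between 0.870 and 1.003 at day 0 and between 0.853 and 1.06 at day 5. From 1000 to 3600 kb they ran from 0.882 to 1.24 at day 0 and from 0.891 to 1.15 at day 5. Low steps were also found further in, outside the end window. From 3600 to 5000 kb the ratios ran from 0.741 to 1.04 at day 0 and from 0.786 to 0.948 at day 5. Of 10-kb bins, 16.2% on the centromere side held no peak of either day, against 7.24% on the telomere side and 8.07% elsewhere, a count made from the same peaks as the density.

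On the telomere side the lists differed near the tip. The last 100 kb had a day 5 ratio of 0.723 (0.659 to 0.792), and the next steps inward 0.819, 0.886 and 0.927. At day 0 these 4 steps had ratios of 1.002, 0.909, 0.953 and 1.06. Between 900 and 1000 kb from the end, just inside the limit, the ratio was 1.30 (1.17 to 1.45) at day 0 and 1.16 (1.08 to 1.25) at day 5, and just outside it, at 1000 to 1100 kb, 1.08 and 1.09. On the centromere side the steps just inside and just outside the limit had ratios of 0.932 and 1.10 at day 0 and of 0.893 and 0.932 at day 5.

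**Figure D1:**
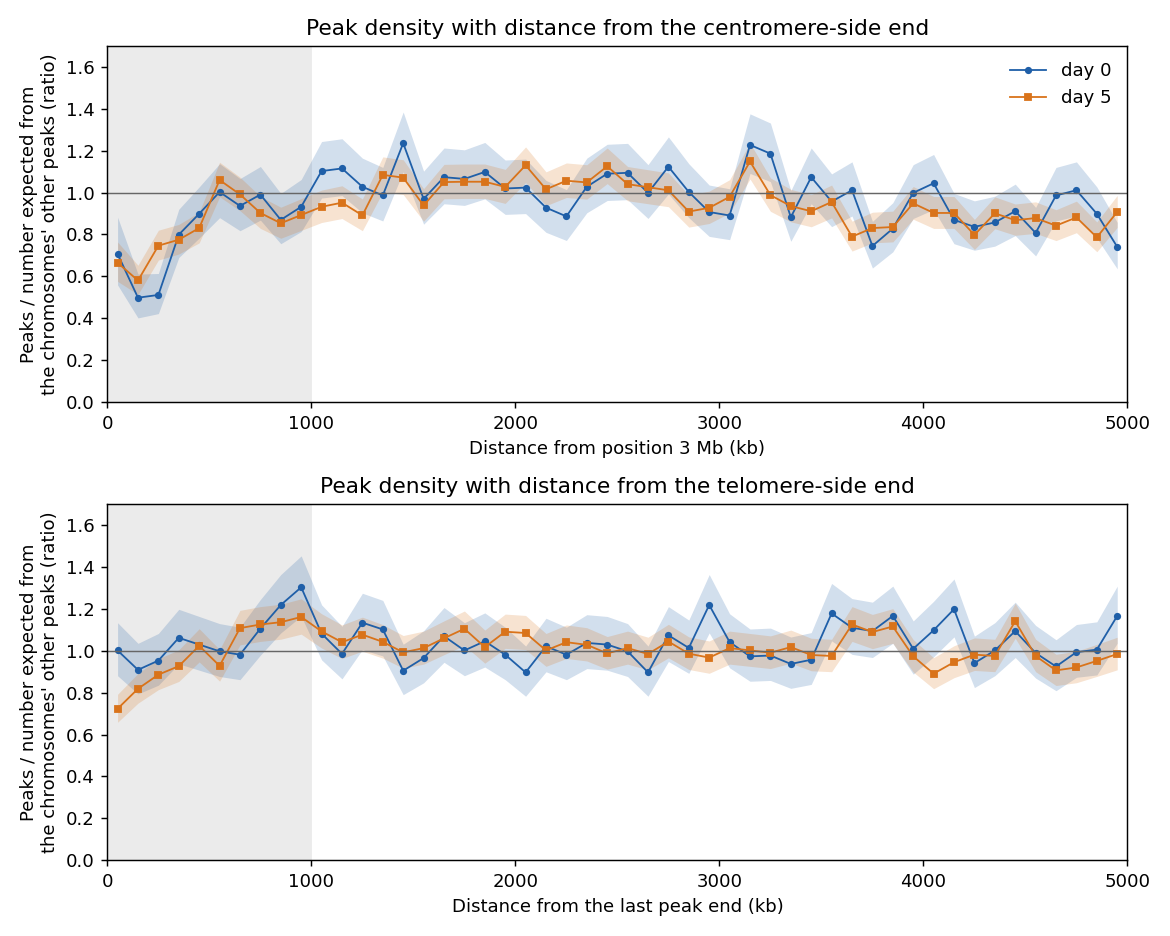
Number of peaks in 100-kb steps from each end, divided by the number that the other peaks of the same chromosomes give on the same length (ratio, vertical axis), against distance in kb, for day 0 (blue circles) and day 5 (orange squares). Bands are 95% Poisson intervals, and the grey area marks the end windows. Both lines are low over the first 400 kb of the centromere side, with a lowest day 0 value of 0.498, and the day 5 line is low to 500 kb. At the telomere side the day 5 line starts at 0.723. On the centromere side the day 5 line also lies below 1 from 3600 to 5000 kb.

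Single chromosomes differed far more than the sums. Centromere-side ratios ran from 0.294 on chromosome 9 to 1.89 on chromosome 7 at day 0, with a median of 0.818 over 18 chromosomes. Of these, 10 lay below the rest of their chromosome beyond counting error and 3 above it. At day 5 they ran from 0.481 on chromosome 16 to 1.44 on chromosome 12, with 9 below and 3 above. Chromosomes 1, 3, 4, 6, 9, 13 and 18 were below the rest beyond counting error on both days. Chromosome 9 had 31 day 0 peaks, or 31.0 per Mb against 106 elsewhere on it, and 204 day 5 peaks, against 347 per Mb elsewhere. Chromosomes 11 and 12 were high on both days, with ratios of 1.60 and 1.67 at day 0 and 1.13 and 1.44 at day 5. Without peaks of high background chromosome 11 had a ratio of 1.29 (1.10 to 1.50) at day 0. At day 5 it had 1.03 (0.917 to 1.14), within counting error, while chromosome 12 had 1.67 and 1.44 on these days. The full length was kept for these ratios, which lowers them where many peaks are left out. Chromosome 7 was high at day 0, with 153 peaks per Mb (128 to 182) against 81.3, and had a day 5 ratio of 0.976 (131 peaks).

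Telomere-side ratios ran from 0.436 on chromosome 12 to 2.57 on chromosome 7 at day 0, with 5 of 19 chromosomes above the rest beyond counting error and 5 below. At day 5 they ran from 0.618 on chromosome 18 to 1.54 on chromosome 7, with 5 above and 6 below. Chromosome 7 thus had the highest telomere-side ratio on both days: 209 day 0 peaks against 81.3 per Mb, and 239 day 5 peaks against 155 per Mb. It did not hold the most telomere-side peaks: chromosome 15 held 271 at day 0 and chromosome 13 held 452 at day 5. Chromosomes 4 and 6 were also above the rest on both days, with 265 and 232 day 0 peaks and 373 and 438 day 5 peaks. Chromosome 18 was low at both of its ends on both days, at 0.481 and 0.453 at day 0 and at 0.603 and 0.618 at day 5. Relative to the rest of it, chromosome 12 joined a dense start to a sparse day 0 end, with 25 peaks in its last Mb. There, 302881 bp between summits at 120870312 and 121173193 held no day 0 summit.

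Counting error is smaller than the spread between 1-Mb windows of a chromosome, which sets these values in proportion. The day 0 centromere-side density was in the lowest 10% of the windows of its chromosome on 3 of 18 chromosomes (1, 3 and 9), and in the highest 10% on 1 (chromosome 11). At day 5 it was in the lowest 10% on 6 of 18 and in the highest on 1. The telomere side was in the lowest 10% on 0 of 19 and in the highest on 2 at day 0, and on 2 and 1 at day 5. The last Mb of chromosome 16 held 147 day 0 peaks, and 1 of the other 94 windows of this chromosome held more. The first window of chromosome 18 held fewer day 5 peaks per Mb than each of the 86 windows away from the ends, and so did its last. The fullest 100-kb bins of the end classes lay elsewhere: 50 day 0 peaks from 159500001 to 159600000 on chromosome 3 at the telomere side, 61 day 5 peaks from 3700001 to 3800000 on chromosome 5 at the centromere side, and 64 day 5 peaks from 119400001 to 119500000 on chromosome 13 at the telomere side.

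**Figure D2:**
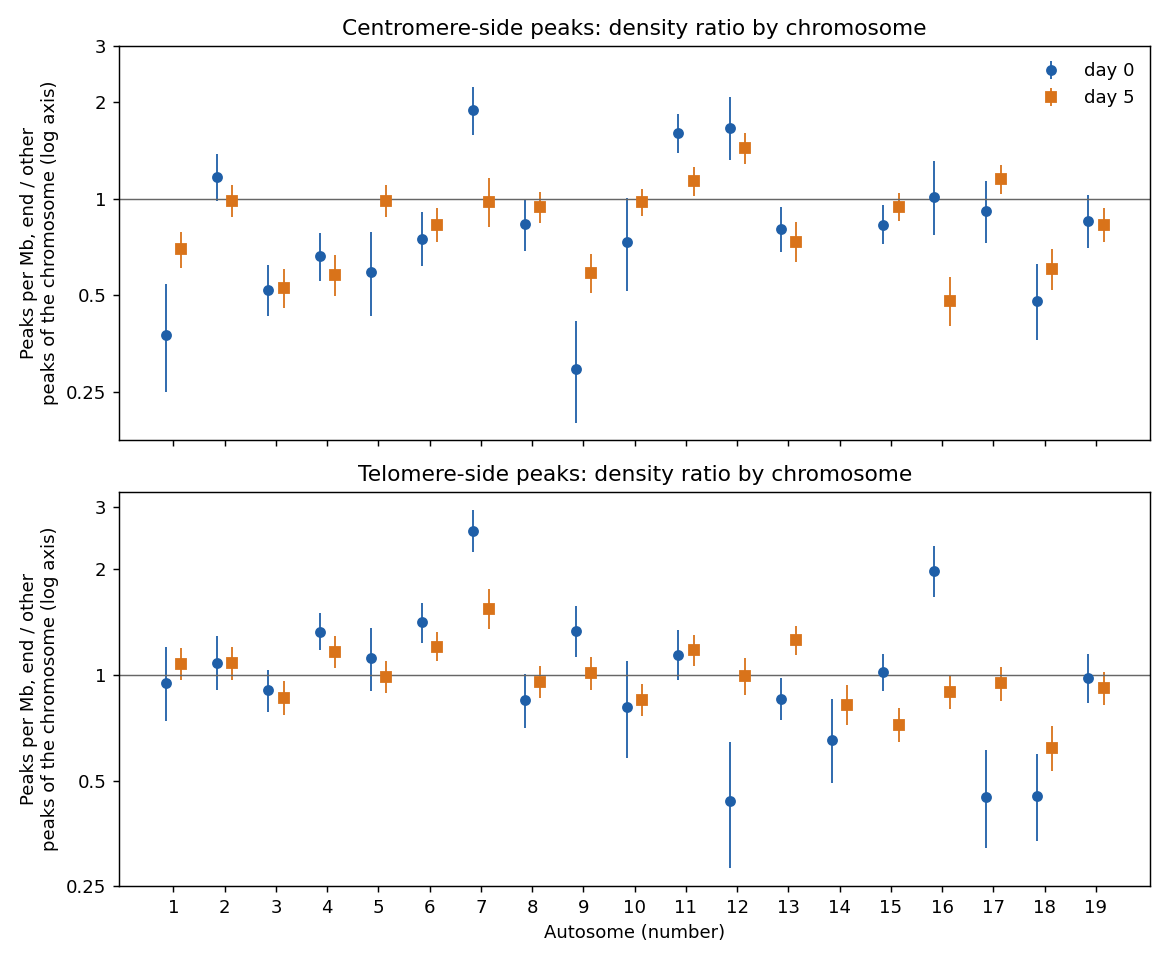
Peaks per Mb in each end window divided by peaks per Mb of the other peaks of the same chromosome (ratio, log axis) for each autosome, at day 0 (blue circles) and day 5 (orange squares). Bars are 95% Poisson intervals and the line marks equal density. On the centromere side most points lie under the line, while chromosome 7 stands highest at day 0 at both ends, with 1.89 and 2.57.

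The outermost day 5 summit lay further out than the outermost day 0 summit at 29 of 37 ends, and the day 0 summit further out at 8, by at most 18260 bp (telomere side of chromosome 4). At the start of chromosomes 6, 13 and 19 the first day 0 summit lay 141567, 105068 and 110432 bp further in than the first day 5 summit, with 5, 6 and 8 day 5 peaks before it. At the far end, the last day 5 summit lay past the last day 0 summit by 99804 bp on chromosome 10 (6 peaks), 64754 bp on chromosome 12 (16 peaks), 49882 bp on chromosome 16 (8 peaks), 48367 bp on chromosome 14 (5 peaks) and 47482 bp on chromosome 1 (3 peaks). The day 5 list is also the longer one, and the part of its length in these distances was not tested. The widest stretches of the end windows that held no summit on either day were near the start of chromosomes 16 and 7, with 240076 and 223960 bp. The next lay at the start of chromosome 4 (119952 bp), chromosome 19 (93502 bp), chromosome 9 (92502 bp), chromosome 6 (77058 bp) and chromosome 18 (71510 bp). Those of chromosomes 19 and 6 lay before the first day 0 summit. On chromosome 7, day 0 had no summit between 3660834 and 3890355 and day 5 none between 3665398 and 3889358. On chromosome 16, day 0 had none between 3351138 and 3591214 and day 5 none between 3351127 and 3593809.

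In width and fold the end peaks were like the others of their chromosomes. The median width at day 0 was 276 bp on the centromere side and 281 bp on the telomere side, against 277 bp for the other peaks. At day 5 it was 60 and 61 bp against 59 bp. The fold is the authors' ratio, at the summit, of reads plus 1 to background plus 1. Its day 0 median was 2.26 on the centromere side and 2.27 on the telomere side, against 2.28 for the others. At day 5 it was 2.47 at both ends, against 2.48 on the chromosomes with centromere-side members and 2.49 for the telomere side. Fold medians by chromosome were from 2.08 to 2.37 at day 0 and from 2.28 to 2.76 at day 5 over both ends. These differences are small beside the middle 50% of centromere-side folds at day 0, 2.00 to 2.55, and of widths, 229 to 356 bp. The telomere side of chromosome 15 departed from this in its reads: its day 0 summits held a median of 13 reads over a background of 5.44, against 9 over 3.63 on the rest of that chromosome, with a median fold of 2.08 against 2.18.

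The upper tail of the background differed more than the medians did. The background is the number of reads awaited at a summit that the fold and the −log10 p imply, and it was solved here from them. Which control entered the list of each day is not given in the labels, so the background is not a measured input count. On the centromere side 22.2% of day 0 peaks and 18.2% of day 5 peaks had the lowest background of their list, which acts as a floor. At day 0, 43 centromere-side peaks, 2.35% of them (1.75 to 3.15), had a background of at least 20 reads, against 0.0218% of all autosomal peaks. On the telomere side 5 did, and of the other 307809 autosomal peaks 20 did, so that the centromere side held 43 of 68. At day 5, with a limit of 5 reads to match the narrower peaks, 49 centromere-side peaks (1.03%, 0.780 to 1.36) passed, against 0.0110% of all autosomal peaks. The telomere side held 4 of the 88 day 5 peaks past the limit and the other autosomal sequence held 35. These regions are named here because of these values. The 99th percentile of the background was 73.4 reads on the centromere side at day 0, 10.9 on the telomere side and 7.44 elsewhere.

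Most of these peaks lay in one stretch at the start of chromosome 11, which held 41 of the 43 at day 0 and 35 of the 49 at day 5. In the first 100 kb of this chromosome, from 3000001 to 3100000, the day 0 list had 42 peaks, more than any other 100-kb bin of the centromere side. The 41 had backgrounds from 29.9 to 98.8 reads with a median of 73.4, pile-ups from 44 to 124 with a median of 100, and folds from 1.15 to 1.99. They were chosen by their background, and a listed peak has more reads than its background, so the high pile-ups follow from that choice. The 35 day 5 peaks there had a median background of 16.1 reads, a median pile-up of 27 and a median fold of 1.67. The stretch ended sharply: from 3080001 to 3100000 the median background was 70.7 reads at day 0 and 16.3 at day 5, and in the next 20 kb it was 2.70 and 0.855. A q of at most 0.05 was reached by 2 of the 41 at day 0, at 3001362 to 3001765 with 65 reads over 32.2 and at 3053464 to 3054243 with 114 reads over 73.4. Without peaks of high background, and with the full length kept, the density ratios of the centromere side were 0.811 at day 0 and 0.836 at day 5.

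**Figure D3:**
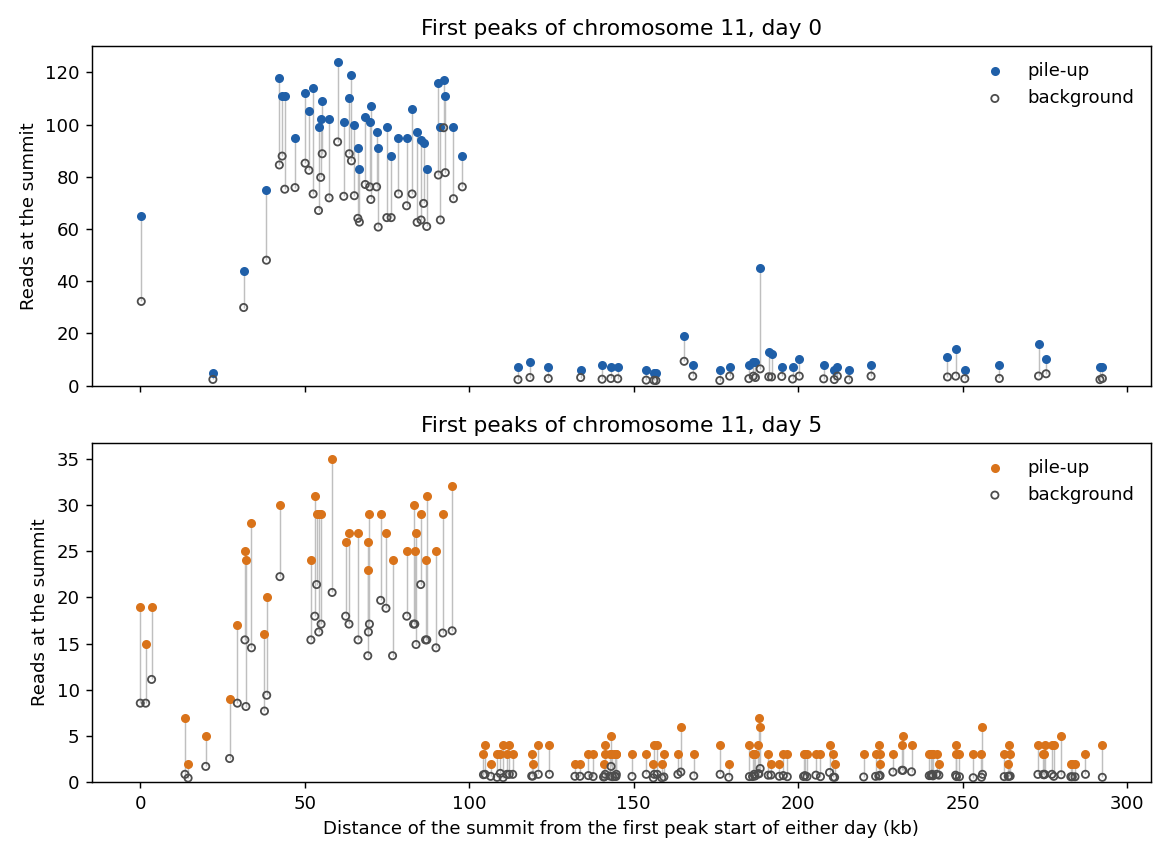
Reads at each summit (vertical axis) in the first 300 kb of chromosome 11 against distance in kb from the first peak start of either day, at day 0 (top) and day 5 (bottom). Filled points are pile-ups, open points are backgrounds, and a grey line joins those of 1 peak. Pile-ups of 44 to 124 reads at day 0 stand over raised backgrounds and both drop together near 100 kb.

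A second group lay at the start of chromosome 9 and was seen at day 5. Between 3000119 and 3036593 the day 5 list had 8 peaks with backgrounds from 20.5 to 73.5 reads, pile-ups from 41 to 101 and folds from 1.36 to 2.09. Of these, 0 overlapped a day 0 peak, where 9.30% of all autosomal day 5 peaks did. The day 0 list had 1 peak in this stretch, from 3007235 to 3007474, with 38 reads over 21.8, and then none until a summit at 3326508, 319071 bp further in. At the far end of chromosome 13, 3 day 0 peaks from 120278707 to 120283461 had backgrounds of 20.8 to 27.2 reads. At day 5, 2 peaks between 120278393 and 120282255 passed the limit, with 6.84 and 5.41. The outermost day 5 peak, from 120283287 to 120283387, had a background of 4.41, below the limit. On chromosome 2, a day 0 peak at 181652186 to 181652435 had 120 reads over 68.0, and 2 day 5 peaks lay about 10 kb further out, from 181663057 and 181665934, with 16 and 27 reads over 10.3 and 18.8.

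**Figure D4:**
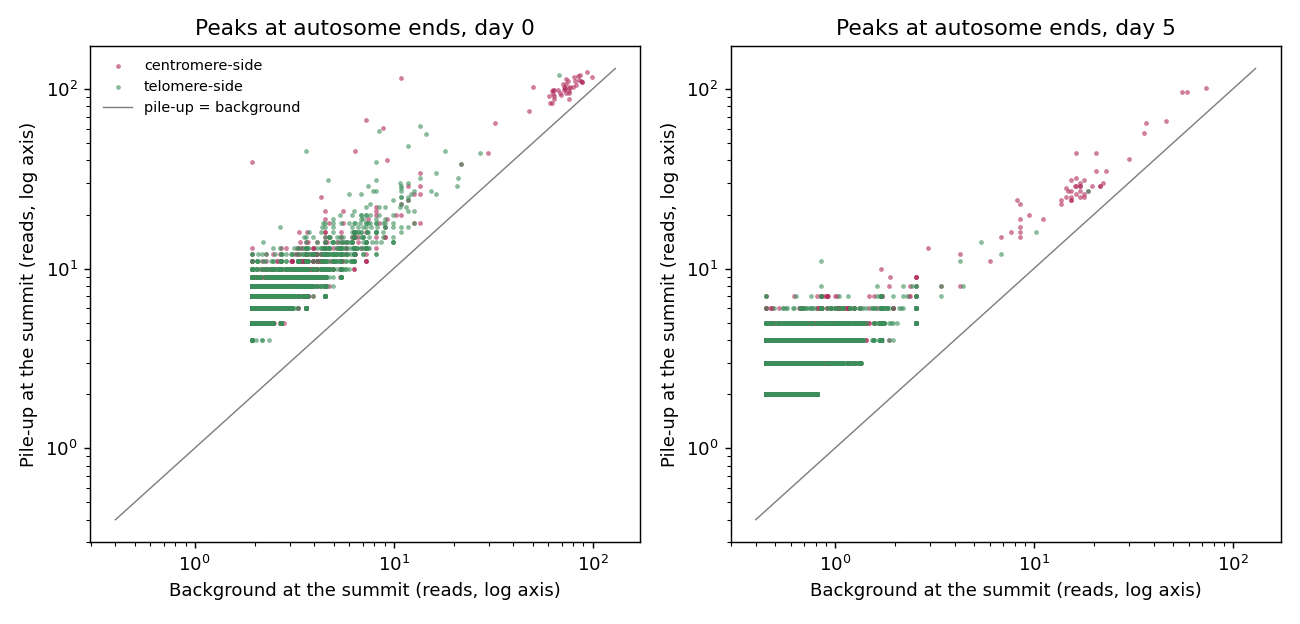
Pile-up against background at the summit (reads, log axes) for each peak at the autosome ends, at day 0 (left) and day 5 (right). Centromere-side peaks are red and telomere-side peaks green, and the line marks equal values. Most peaks form a block at low background, and a run of centromere-side peaks, 43 at day 0, lies near the line at high background with folds from 1.15 to 2.02.

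Peaks with a low q were present at both ends at day 0. The q is the authors' p adjusted over the list. At most 0.05 was reached by 43 centromere-side peaks, 2.35% (1.75 to 3.15), and by 82 telomere-side peaks, 3.12% (2.52 to 3.86), against 2.09% of all autosomal day 0 peaks. The 82 were unevenly spread, with 22 on chromosome 15 and 18 on chromosome 4. On chromosome 15 that was 8.12% of its telomere-side peaks, against 3.49% of its other peaks, and on chromosome 4 6.79% against 2.29%. Their median width was 518 bp, and that of the 43 was 436 bp. The strongest centromere-side peak lay on chromosome 12 from 3806183 to 3806987, with 115 reads over a background of 10.9, a fold of 9.77. Next came chromosome 7 from 3645756 to 3646302, with 67 reads over 7.25. Chromosome 15 had the highest fold of the centromere side, 13.6, at 3735210 to 3735776, where 39 reads stood over 1.95.

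Other strong centromere-side peaks lay on chromosome 4 from 3865400 to 3866179, with 61 reads over 8.88, and on chromosome 11 from 3188970 to 3190475, with 45 reads over 6.41. The last one is also the widest of its class at 1506 bp, followed by a peak of 1472 bp on chromosome 7 from 3332893 to 3334364 with 12 reads. On the telomere side the strongest peak was on chromosome 16 from 97940821 to 97941379, with 45 reads over 3.63, a fold of 9.95. Second was chromosome 8 at 130880865 to 130881376, where 58 reads stood over 8.47. The next 3 were all in the last Mb of chromosome 15, from 103196650 to 103197535 with 62 reads over 13.6, from 102751179 to 102752050 with 56 over 14.5, and from 103208509 to 103209716 with 31 over 4.67. The widest telomere-side peaks were 1485 bp, on chromosome 4 from 154782464 to 154783948, and 1317 bp, on chromosome 15 from 102964333 to 102965649.

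Of the day 5 peaks, 2 of the 10 autosomal ones with a q of at most 0.05 (0.00125% of the list) lay at an end, 1 on each side. The centromere-side one, at 3016900 to 3016962 of chromosome 4, had a background of 16.2 under its 44 reads. The telomere-side one, at 61261234 to 61261337 of chromosome 19, had 11 reads over 0.855, a fold of 6.47, the highest of the end peaks at day 5. A −log10 p of at least 5 was reached by 37 centromere-side peaks, 0.778% (0.565 to 1.07), and 44 telomere-side peaks, 0.700% (0.522 to 0.938), against 0.643% of all autosomal day 5 peaks. Neither share departed from the list beyond counting error. Chromosome 10 held 2 of the 5 strongest day 5 peaks of the centromere side, from 3668668 to 3668746 with 7 reads and from 3668933 to 3669010 with 6. Besides these and the chromosome 4 peak, the strongest 5 included one on chromosome 9 from 3026656 to 3026794, with 96 reads over 55.6, and one on chromosome 8 from 3587233 to 3587334, with 7 over 0.622. Peaks with 7 reads over 0.452 also lay on the telomere side of chromosome 10, from 129248962 to 129249027, and of chromosome 12, from 120551779 to 120551855. Chromosome 4 from 155088891 to 155088961, with 8 reads over 0.855, and chromosome 11 from 121277550 to 121277641, with 7 over 0.637, completed the strongest 5 of the telomere side. Of those 5, 0 overlapped a day 0 peak, where 9.30% of all autosomal day 5 peaks did, so this count sets them apart from no other peaks. The widest day 5 end peaks were 298 bp (chromosome 10 from 3622360), 296 bp (chromosome 16 from 3244019), 353 bp (chromosome 2 from 181087665) and 333 bp (chromosome 3 from 158636208).

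End peaks had a peak on the other day about as often as other peaks. On the centromere side 437 of 1830 day 0 peaks shared at least 1 bp with a day 5 peak, 23.9% (22.0 to 25.9), against 21.7% of the other peaks of the same chromosomes and 22.0% of all autosomal day 0 peaks. On the telomere side 581 of 2626 did, 22.1% (20.6 to 23.8), against 21.8%. Of day 5 peaks, 478 on the centromere side overlapped a day 0 peak, 10.05% (9.23 to 10.9), against 9.15% of the others there and 9.30% of all autosomal day 5 peaks, and 626 on the telomere side did, 9.96% (9.24 to 10.7), against 9.39%. The centromere-side surplus was thus 2.18 percentage points at day 0 (0.285 to 4.19) and 0.902 at day 5 (0.0799 to 1.79), close to the limit of counting error. Its interval included 0 under 3 of 7 alternatives at day 0 and under 5 of 7 at day 5. With summits within 100 bp as the criterion it was 1.44 points at day 0 (-0.0211 to 3.06) and 0.492 at day 5 (-0.0933 to 1.15), and with a reciprocal overlap of 25% it was 1.06 and 0.338. In the last 100 kb of the telomere side, a step chosen after its values were seen, the day 5 share was 15.6% (12.6 to 19.2) against 10.8% on the same chromosomes, and the day 0 share 26.1% (21.0 to 31.9) against 21.6%. The next step inward lay on the other side, with 8.41% (6.33 to 11.1) against 9.83% at day 5 and 16.8% (12.5 to 22.2) against 22.0% at day 0.

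By chromosome, the day 0 share on the centromere side ran from 13.5% on chromosome 7 to 33.7% on chromosome 15, and it was above that of the other peaks on 14 of 18 chromosomes, on 2 of them beyond counting error. At day 5 it was above on 9 and below on 9. Chromosome 11 stood out at day 5, with 16.9% (13.3 to 21.1) against 8.37%, and held 61 of the 478 overlapping centromere-side peaks. Of these 61, 16 were among the 35 of high background. The day 5 surplus without chromosome 11 was not computed, so its part in that surplus was not tested. Chromosome 7 had 13.7% against 6.70%, chromosome 16 11.4% against 4.49% and chromosome 19 15.5% against 10.7%. Below the rest beyond counting error were chromosome 3, with 9.55% (6.20 to 14.4) against 16.04%, and chromosome 9, with 2.94% (1.35 to 6.27) against 6.51%. Of the 43 centromere-side day 0 peaks with a q of at most 0.05, 18 overlapped a day 5 peak, 41.9% (28.4 to 56.7), and of the 82 on the telomere side 26 did, 31.7% (22.6 to 42.4). Of all autosomal day 0 peaks 22.0% did, and of the 6399 other peaks with such a q 32.4%. The strongest day 5 peak overlapped by each of the 18 and the 26 held 2 to 7 and 2 to 6 reads, with a median of 4 on both sides. Day 5 peaks away from the ends had a median of 3, but taking the strongest where several overlap favours a higher value. The chromosome 12 and chromosome 7 peaks named first, and the chromosome 8 peak, had no listed day 5 peak. The lists differ in narrowest width and lowest background, so read numbers of both days do not measure a change in occupancy.

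A few end peaks were placed closely on both days. The chromosome 15 peak with the fold of 13.6 overlapped 2 day 5 peaks between 3735252 and 3735567. The stronger of them held 6 reads, and the nearest day 5 summit was 25 bp from the day 0 summit. The widest centromere-side peak, on chromosome 11, overlapped 3 day 5 peaks between 3189076 and 3189741 with up to 7 reads, and the nearest summits were 2 bp apart. Both chromosome 10 peaks of day 5 overlapped the same day 0 peak, from 3668657 to 3669008, which held 7 reads. At the telomere side, the chromosome 16 peak overlapped a day 5 peak of 3 reads with its summit 267 bp away.

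**Figure D5:**
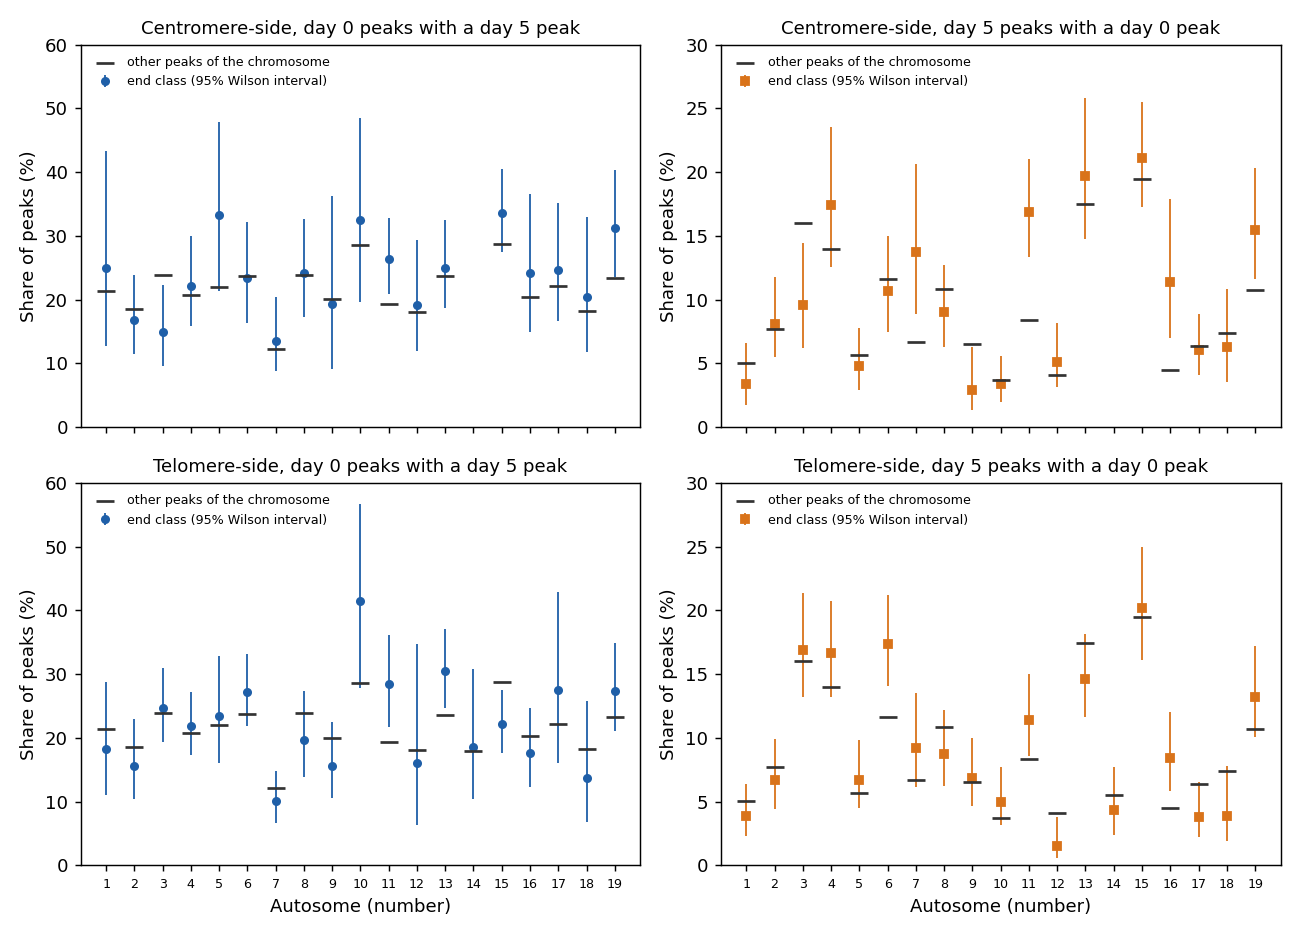
Share of end peaks (percent) that overlap a peak of the other day by at least 1 bp, for each autosome, by class (rows) and day (columns). Points are the end class with 95% Wilson intervals, and dashes are the other peaks of the same chromosome. Most intervals include the dash, while centromere-side day 5 peaks of chromosome 11 lie at 16.9% against 8.37%.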

How the data were processed

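The authors deposited 1 list of peaks per day, without a header and in the layout MACS writes. Per the submitters' processing notes, Bowtie2 and HOMER were used, and mm9 stands there beside mm10 and GRCm38 with no role stated, the peak caller being not given in the sources used here. For every summit the authors deposited a fold, which is a ratio, with its −log10 p and −log10 q. The pile-up and background were solved from fold and −log10 p as a Poisson tail, within a relative difference of 0.0001 for all autosomal peaks but 1 at day 0. This and the measures were tested on simulated data. Other peaks are those of the same chromosome and day in neither end class, weighted by the members of each chromosome. Intervals are exact Poisson for densities, Wilson for shares and binomial order statistics for medians. Named peaks are, for each class and day, the 5 with the highest −log10 p, the 2 widest, the outermost on the chromosomes named, and the fullest 100-kb bin, and other regions were chosen after their values were seen. The members and lists were chosen with earlier results of these data known. Genes and sequences at the peaks are not analysed here, since the tables at hand are of GRCm38 and coordinates were not converted. The number of columns not used is 0. The computing used scipy 1.17.1, pandas 2.3.3 and numpy 2.4.6 under Python 3.11.15.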

Additional observations from a re-analysis of the deposited data

Results flagged for a closer look

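At the telomere side of 2 chromosomes the days lay on opposite sides of their chromosome's density, each beyond counting error. On chromosome 16 the ratio was 1.97 at day 0 (147 peaks) and 0.895 at day 5 (320 peaks). Its day 5 interval reached 357.05 peaks per Mb, just under the 357.46 of the rest. On chromosome 13 the ratio was 0.853 at day 0 (210 peaks) and 1.25 at day 5 (452 peaks). Among 1-Mb windows the low values were not extreme: 67 of 94 held more on chromosome 16 at day 5, and 82 of 116 on chromosome 13 at day 0. For the high values, 1 of 94 and 8 of 116 held more. With 1 library per day the difference was not tested.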

How the results depend on the processing

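Of 92 alternative values over the 16 results, 70 stayed within the counting interval of the reported value. Leaving out peaks of high background was chosen after seeing the data, and the full length of each class was kept without those peaks. The centromere-side surplus of peaks with a peak on the other day lost its distance from 0 at day 5 without them, 0.639 points (-0.177 to 1.52), and with both other overlap criteria, narrower windows and a −log10 p of at least 3, and at day 0 without chromosome 11, 1.55 points (-0.455 to 3.67), with a −log10 p of at least 3 and with summits within 100 bp. With windows of 500000 bp the centromere-side density ratio was 0.692 at day 0 and 0.733 at day 5 and its day 0 width difference 5 bp; the telomere-side ratio was 0.991 at day 0, the other side of 1, and 0.876 at day 5, and its day 5 fold difference 0.00743. With windows of 2000000 bp the centromere-side ratios were 0.956 and 0.929 and the day 5 telomere-side ratio 1.02. With a −log10 p of at least 3 the ratios were 0.922 and 0.890 on the centromere side and 1.15 and 1.02 on the telomere side, the day 0 telomere-side width and fold differences were -4.00 bp and 0.0113, and the day 5 centromere-side width difference was -2.00 bp. Without the chromosome with the most members (11, 15, 10 and 13), the day 0 centromere-side ratio was 0.782, and the fold differences were 0.00646 (day 0 telomere side), -0.0220 (day 5 centromere side) and -0.0277 (day 5 telomere side). Over 10-kb bins with a peak, which by construction brings ratios nearer 1, the centromere-side ratios were 0.922 and 0.929. The cause was not tested. No paired analysis was possible because each day has 1 library. Day cannot be told apart from library, and a median of 3 reads per day 5 summit limits what these values can show.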
